A study of Homo sapiens with 6 samples.

Results

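Collagen, laminin and other matrix genes were followed in 786-O, a line from a human clear cell carcinoma of the kidney, after knockdown of ALYREF, an adaptor that couples the packaging of messenger RNA to its export from the nucleus. The rule took every gene symbol that starts as a collagen or laminin chain does and a fixed list of 21 further matrix genes, and 42 of the 11679 genes measured are described by it. Of these 42 genes, 41 encode matrix proteins or the enzymes that cross-link them. The other one, COL4A3BP, fits the pattern by its symbol only: it encodes a ceramide transfer protein, and it is left out of the counts below. Of the listed names, BGN, FBLN1, FBLN2, FBN2 and THBS2 were not among the 11679 genes measured.

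Polyadenylated RNA was sequenced from 6 libraries in 3 groups of 2. The groups were cells with ALYREF siRNA5, cells with ALYREF siRNA8 and cells with a non-targeting siRNA (NTC), all of this 1 line. All were grown in RPMI with 10% FBS, split at 24 h and harvested after 48 h of knockdown. The authors' deposited tables give for each gene 1 mean normalized count over all libraries and, for each siRNA, a log2 fold change over NTC with its standard error (SE) and an adjusted p. The threshold for a call was an adjusted p of 0.05. Values of single libraries were not used here, so the spread between libraries enters through the SE. A level in each group was computed from the mean and both fold changes, and is given as normalized counts.

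ALYREF itself fell by 4.14 (SE 0.096) on the log2 scale with siRNA5 and dropped by 3.67 (SE 0.085) with siRNA8, per the authors' deposited tables, and so was lower with siRNA5 than with siRNA8 by a difference of -0.47 (SE 0.13, adjusted p = 0.00152). The part of this unequal knockdown in the differences between the siRNAs was not tested. The 6 markers of the line that are reported (PAX8, PAX2, CDH6, VIM, EPAS1 and ANPEP) were all measured. Several of them were called too: CDH6 had a log2 fold change of -0.32 with siRNA5 and 0.60 with siRNA8, VIM of -0.18 with each siRNA, and EPAS1 of 0.33 with siRNA5 and 0.53 with siRNA8, per the authors' deposited tables. PAX2 rose by 0.61 and ANPEP fell by 0.39 with siRNA5, and PAX8 rose by 0.39 with siRNA8, per the authors' deposited tables. Of the markers of other cell types, 1 of 6 for fibroblasts (PDGFRB, mean 21.2), 0 of 5 for endothelial cells and 1 of 4 for immune cells (CD68, mean 202) were among the genes measured, and of these PDGFRB fell by 1.53 (SE 0.60, adjusted p = 0.0281) with siRNA8, per the authors' deposited table. The part of these shifts in the matrix results was not tested. The 41 means ran between 12.3 and 26974 normalized counts, with 15 under 100, and the SE of their fold changes ran between 0.039 and 0.79 in the authors' deposited tables. In bulk RNA, fewer cells that make a transcript and less of it per cell cannot be told apart.

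The extracellular matrix is built from secreted proteins that assemble outside the cell. Basement membranes are sheets in which a network of laminin trimers (an alpha, a beta and a gamma chain) and a network of type IV collagen are joined by nidogen and by the heparan sulfate proteoglycans perlecan and agrin, and the epithelial tubules of the kidney rest on such a sheet. Interstitial matrix holds other collagens, fibronectin, fibrillin microfibrils and the proteoglycan versican. Thrombospondin, tenascin and SPARC act mainly on the contact of cells with that matrix, and lysyl oxidases cross-link it.

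Sequences upstream of genes on which the results turn are given here from the RefSeq promoter table (GRCh38.p14), which held 32 of the 41 genes in 39 entries. COL4A1 and COL4A2, the main chains of type IV collagen, are transcribed away from each other from a shared stretch of 126 bases, chr13:110307158-110307283, printed on the plus strand, the direction of COL4A2, with the GC box (GGGCGG) and the CCAAT box in capitals.
COL4A1-COL4A2: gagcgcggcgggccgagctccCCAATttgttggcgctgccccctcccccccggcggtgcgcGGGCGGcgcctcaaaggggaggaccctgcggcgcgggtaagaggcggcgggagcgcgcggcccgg
LAMA3 and LAMB3 encode chains of the laminin that anchors epithelia, and their upstream 250 bases are shown because they were the only genes among the 32 with the AP-1 element TGANTCA (capitals, palindromic apart from N) there. LAMA3 lies on the plus strand at chr18:23872770-23873019 and LAMB3, from 1 of its 3 listed starts, on the minus strand at chr1:209651375-209651624.
LAMA3: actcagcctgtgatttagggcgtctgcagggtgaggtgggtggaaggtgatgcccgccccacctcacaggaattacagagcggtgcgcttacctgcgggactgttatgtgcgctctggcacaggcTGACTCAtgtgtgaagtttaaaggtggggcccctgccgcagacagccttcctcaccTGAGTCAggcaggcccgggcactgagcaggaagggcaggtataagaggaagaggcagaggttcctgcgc
LAMB3: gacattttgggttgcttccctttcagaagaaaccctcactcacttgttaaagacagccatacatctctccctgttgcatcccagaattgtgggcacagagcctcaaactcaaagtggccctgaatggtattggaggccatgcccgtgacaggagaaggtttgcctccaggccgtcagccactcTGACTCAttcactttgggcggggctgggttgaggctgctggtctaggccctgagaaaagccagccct
THBS1 and FN1 had the widest split between the siRNAs and the highest mean, and are shown with GC and CCAAT boxes in capitals and, in FN1, also the cyclic AMP response element TGACGTCA. THBS1 lies on the plus strand at chr15:39580829-39581078 and FN1 on the minus strand at chr2:215436069-215436318.
THBS1: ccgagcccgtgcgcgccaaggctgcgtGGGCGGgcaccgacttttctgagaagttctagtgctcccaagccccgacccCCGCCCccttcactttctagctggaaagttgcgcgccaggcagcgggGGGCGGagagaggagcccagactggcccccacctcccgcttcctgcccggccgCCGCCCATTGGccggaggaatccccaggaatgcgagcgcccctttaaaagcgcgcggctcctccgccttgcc
FN1: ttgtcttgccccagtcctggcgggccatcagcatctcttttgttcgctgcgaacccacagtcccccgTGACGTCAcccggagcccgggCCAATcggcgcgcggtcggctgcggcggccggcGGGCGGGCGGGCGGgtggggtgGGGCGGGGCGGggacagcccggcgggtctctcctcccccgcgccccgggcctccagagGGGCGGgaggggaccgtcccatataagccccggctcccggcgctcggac
All motifs were searched on both strands in the 250 bases before each start. LAMA3 held 2 AP-1 elements and LAMB3 held 1, THBS1 held 4 GC boxes and 1 CCAAT box, and FN1 held 6 GC boxes, some of which share bases, and 1 CCAAT box; motifs of different kinds did not overlap. The GC box was in 76.9% of the entries of matrix genes and in 42.6% of all 35116 entries, the CCAAT box in 30.8% and 32.0%, and the AP-1 element in 5.13% and 6.57%. The cyclic AMP response element was in 2.56% of the entries of matrix genes and in 1.65% of all entries. The 35116 entries were not limited to genes measured here, while those of the matrix genes were, so the sets are unlike. A match describes letters only, and no binding was measured.

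With siRNA5, matrix genes were more often lower than higher, and with siRNA8 more often higher than lower. By the authors' deposited adjusted p-values, 16 of the 41 genes fell and 5 rose with siRNA5, where 22.0% of all genes fell and 24.4% rose. With siRNA8, 12 rose and 6 fell, where 21.0% of all genes rose and 20.5% fell. Called genes of either direction made up 51.2% of the matrix genes with siRNA5 (all genes 46.4%) and 43.9% with siRNA8 (all genes 41.5%). The median log2 fold change of the members, computed from the authors' deposited tables, was -0.18 with siRNA5 and 0.18 with siRNA8, against 0.01 for all genes with each siRNA. Changes of at least 0.5 on the log2 scale were called for 10 falls and 1 rise with siRNA5 (all genes 10.3% and 8.45%) and for 7 rises and 4 falls with siRNA8 (all genes 6.58% and 9.54%). Of the 41 genes, 12 were called with neither siRNA (all genes 36.5%). Where the 95% interval of the log2 fold change had to lie beyond 0.25, 13 matrix genes in place of 21 were called with siRNA5, 1 of them a rise. With siRNA8, 12 in place of 18 were called, 8 rises and 4 falls. The share over all genes was not computed for this setting.

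**Figure D1:**
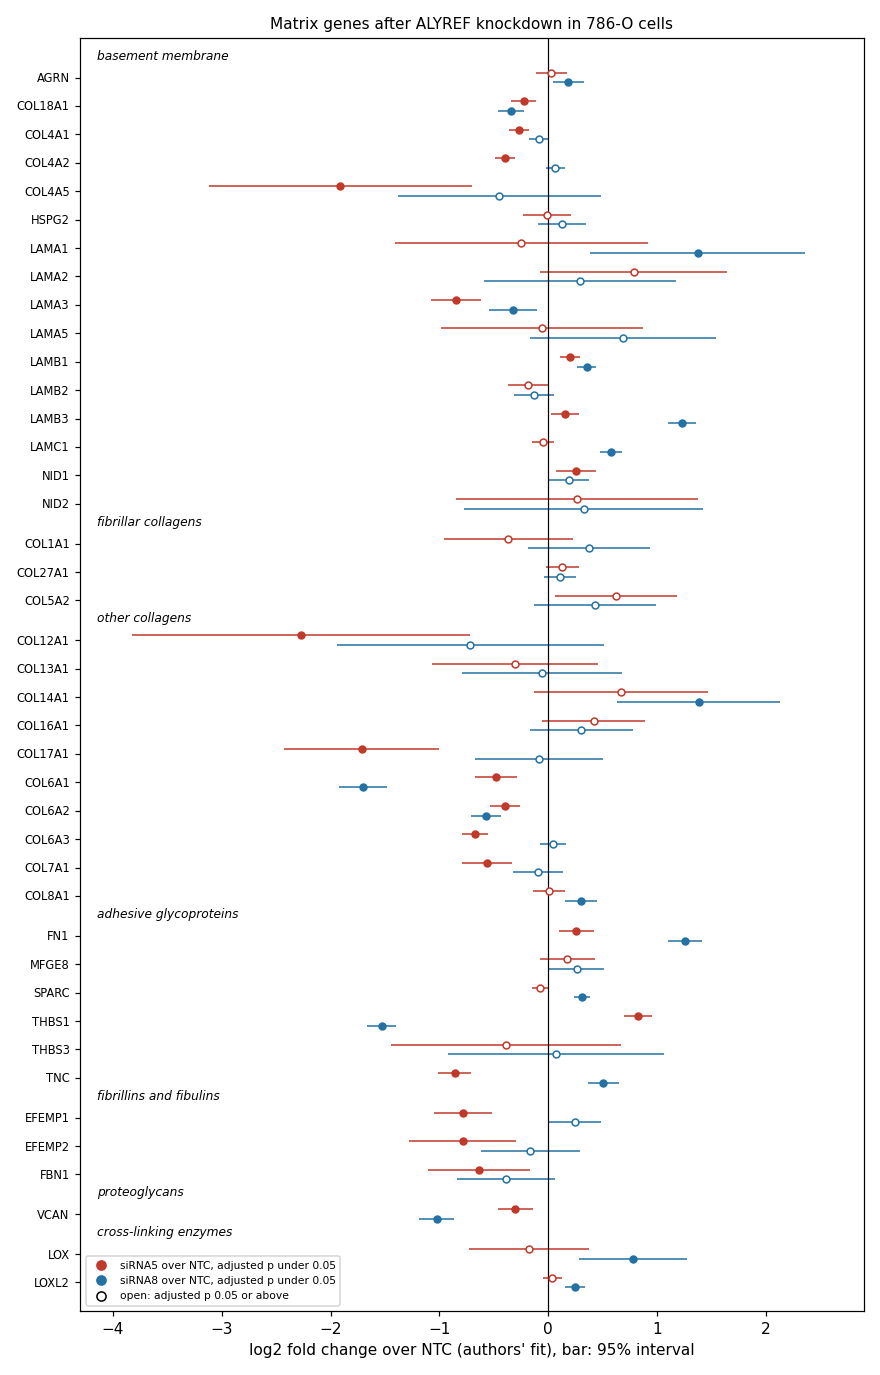
Log2 fold change over NTC of the 41 matrix genes (x axis) by role (rows), for siRNA5 (red, upper point of each pair) and siRNA8 (blue, lower point), with 95% intervals and open points where the adjusted p is 0.05 or above. With siRNA5, 16 genes are filled left of the line and 5 right of it, and with siRNA8 6 left and 12 right; the widest bars belong to genes with means under 100.

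Both comparisons use the same NTC libraries, so their values are set side by side here without a test of overlap. LAMB1, LAMB3 and FN1 rose with both siRNAs (all genes 9.85%), while COL18A1, LAMA3, COL6A1, COL6A2 and VCAN fell with both (all genes 8.76%). Where the 95% interval had to lie beyond 0.25, 2 of these 8 genes were still called with both, COL6A1 and COL6A2. THBS1 and TNC were called in opposite directions (all genes 5.87%). The levels of the 41 genes summed to 146688 normalized counts with siRNA5, 169234 with siRNA8 and 147653 with NTC, and without FN1 to 125560 with siRNA5, 127066 with siRNA8 and 130024 with NTC. No test was made on these sums, computed from the authors' deposited tables.

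Among the adhesive and matricellular glycoproteins, FN1 and THBS1 had the highest means and, with siRNA8, the largest changes. THBS1, thrombospondin-1, a glycoprotein that activates latent TGF-beta and inhibits angiogenesis, stood at 21395 normalized counts with siRNA5, 4171 with siRNA8 and 12041 with NTC, computed from the authors' deposited tables. It was thus above the control with siRNA5 and below it with siRNA8. Its log2 fold change was 0.83 (SE 0.067, adjusted p = 8.22e-34) with siRNA5 and -1.53 (SE 0.068, adjusted p = 6.82e-108) with siRNA8, per the authors' deposited tables. FN1, fibronectin, the adhesive protein bound by integrins, stood at 21127 normalized counts with siRNA5, 42168 with siRNA8 and 17628 with NTC, computed from the authors' deposited tables. It rose by 0.26 (SE 0.080, adjusted p = 0.00348) with siRNA5 and by 1.26 (SE 0.080, adjusted p = 1.07e-53) with siRNA8, per the authors' deposited tables, a 1.20-fold and a 2.39-fold rise.

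TNC, tenascin-C, which loosens the adhesion of cells to fibronectin, moved against THBS1. Its level was 973 normalized counts with siRNA5, 2513 with siRNA8 and 1766 with NTC, computed from the authors' deposited tables. TNC fell by 0.86 (SE 0.079, adjusted p = 4.46e-26) with siRNA5 and rose by 0.51 (SE 0.073, adjusted p = 4.18e-11) with siRNA8, per the authors' deposited tables. SPARC, a collagen-binding matricellular protein, had the highest control level per length of the 41 genes, with 2040 normalized counts per kb of exon with NTC. It rose by 0.31 (SE 0.039, adjusted p = 2.05e-14) with siRNA8, and its log2 fold change with siRNA5 was -0.07 (SE 0.039, adjusted p = 0.12), per the authors' deposited tables. MFGE8, an adhesive glycoprotein with a role in the uptake of dying cells, and THBS3, a thrombospondin with a mean of 19.3, were called with neither siRNA.

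**Figure D2:**
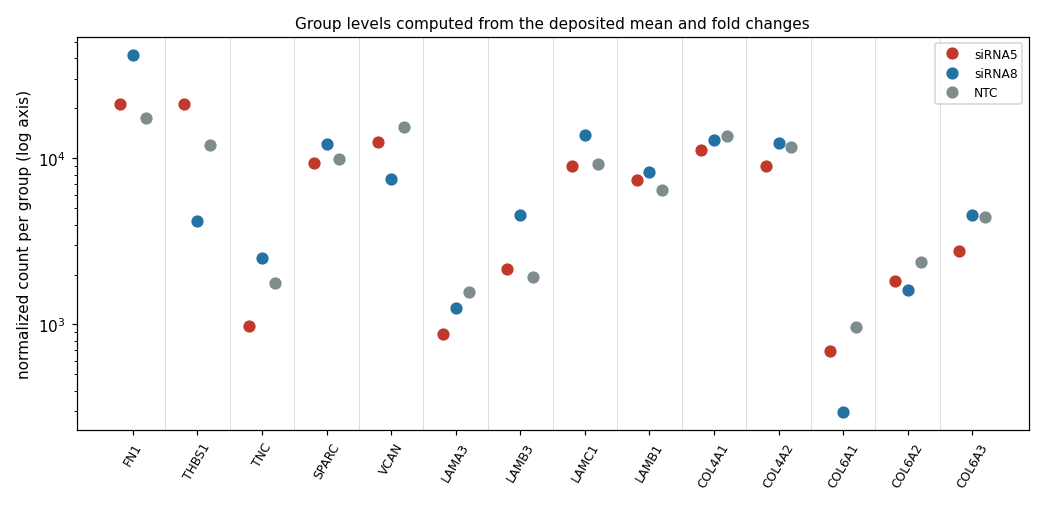
Normalized count per group on a log axis for 14 matrix genes, computed from the deposited mean and fold changes, for siRNA5 (red), siRNA8 (blue) and NTC (grey), with no error bars because values of single libraries were not used. THBS1 is at 21395 with siRNA5, 4171 with siRNA8 and 12041 with NTC, and COL6A1 at 693 with siRNA5, 297 with siRNA8 and 967 with NTC.

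LAMA3 and LAMB3, the alpha and beta chains of epithelial anchoring laminin, moved apart. With each siRNA, LAMB3 was called higher than the control and LAMA3 lower, though 1 of the 2 calls was weak each time. LAMB3 stood at 2160 normalized counts with siRNA5, 4550 with siRNA8 and 1938 with NTC, computed from the authors' deposited tables. LAMA3, at 872 with siRNA5, 1256 with siRNA8 and 1569 with NTC on the same computed scale, was highest in the control, and LAMB3 was lowest there. LAMB3 rose by 1.23 (SE 0.065, adjusted p = 1.18e-76) with siRNA8, per the authors' deposited table. LAMA3 fell by 0.32 (SE 0.11, adjusted p = 0.014) with siRNA8 and fell by 0.85 (SE 0.12, adjusted p = 3.99e-12) with siRNA5, per the authors' deposited tables. With siRNA5, LAMB3 rose by 0.16 (SE 0.067, adjusted p = 0.044), per the authors' deposited table. The LAMB3 call with siRNA5 is lost when fold changes are centred on the median of genes with a mean of at least 500 (adjusted p = 0.141).

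LAMB1 and LAMC1, the widely used beta and gamma chains of basement membranes, had the highest levels per length of the laminin chains described here. LAMC1 stood at 1072 normalized counts per kb with siRNA5, 1655 with siRNA8 and 1109 with NTC, and LAMB1 at 915 with siRNA5, 1016 with siRNA8 and 794 with NTC, computed from the authors' deposited tables. LAMC1 rose by 0.58 (SE 0.050, adjusted p = 1.35e-28) with siRNA8, and its log2 fold change with siRNA5 was -0.05 (SE 0.051, adjusted p = 0.46), per the authors' deposited tables. LAMB1 rose by 0.20 (SE 0.046) with siRNA5 and by 0.36 (SE 0.046) with siRNA8, per the authors' deposited tables. No alpha chain came near these levels: LAMA3, at 107 normalized counts per kb with NTC, was the most abundant of the 4 described, and LAMA1, LAMA2 and LAMA5 had means between 20.7 and 27.8 counts. LAMA1, an alpha chain of embryonic and kidney basement membranes, rose by 1.38 (SE 0.50, adjusted p = 0.0181) with siRNA8, per the authors' deposited table. LAMB2, LAMA2 and LAMA5 were called with neither siRNA.

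All 4 measured collagen chains of the basement membrane fell with siRNA5 (all genes 22.0%). The siRNA5 calls of COL4A1 and COL18A1 were lost where the interval of the log2 fold change had to lie beyond 0.25. Those of COL4A2 and COL4A5 were kept. COL4A2 stood at 8970 normalized counts with siRNA5, 12359 with siRNA8 and 11793 with NTC, and COL4A1, its partner in the shared stretch printed above, at 11303 with siRNA5, 12832 with siRNA8 and 13603 with NTC, computed from the authors' deposited tables. COL4A2 fell by 0.39 (SE 0.046, adjusted p = 1.33e-16) and COL4A1 fell by 0.27 (SE 0.049, adjusted p = 2.95e-07) with siRNA5, per the authors' deposited table. With siRNA8 the log2 fold change was 0.07 (SE 0.045, adjusted p = 0.23) for COL4A2 and -0.08 (SE 0.048, adjusted p = 0.156) for COL4A1, per the authors' deposited table. COL4A5, a chain of the collagen IV network of the glomerulus, fell by 1.91 (SE 0.62, adjusted p = 0.00588) with siRNA5 from a mean of 21.6 counts and had -0.45 (SE 0.48, adjusted p = 0.476) with siRNA8, per the authors' deposited tables. COL18A1, whose fragment endostatin inhibits angiogenesis, fell by 0.23 (SE 0.059) with siRNA5 and dropped by 0.34 (SE 0.059) with siRNA8, per the authors' deposited tables.

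Of the 4 linkers of both networks, 1 was called with each siRNA (all genes 46.4% with siRNA5 and 41.5% with siRNA8). NID1, nidogen-1, rose by 0.26 (SE 0.095, adjusted p = 0.0183) with siRNA5, and its log2 fold change with siRNA8 was 0.19 (SE 0.095, adjusted p = 0.0901), per the authors' deposited tables. AGRN, agrin, rose by 0.18 (SE 0.072, adjusted p = 0.0282) with siRNA8, a call lost under the centring on the median (adjusted p = 0.0677), and its log2 fold change with siRNA5 was 0.03 (SE 0.072), per the authors' deposited tables. HSPG2, perlecan, had a 95% interval of the log2 fold change of -0.23 to 0.21 with siRNA5 and -0.09 to 0.35 with siRNA8, and NID2, with a mean of 16.0, was called with neither siRNA.

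All 3 measured chains of type VI collagen, a beaded filament that ties cells to the interstitial matrix, changed, but by different amounts. COL6A1 stood at 693 normalized counts with siRNA5, 297 with siRNA8 and 967 with NTC, computed from the authors' deposited tables. COL6A2 stood at 1816 with siRNA5, 1610 with siRNA8 and 2390 with NTC, and COL6A3 at 2775 with siRNA5, 4555 with siRNA8 and 4413 with NTC, on the same computed scale. The control was the highest group for COL6A1 and COL6A2, and for COL6A3 the siRNA5 group alone was called below it. COL6A1 fell by 0.48 (SE 0.099, adjusted p = 6.46e-06) with siRNA5 and dropped by 1.70 (SE 0.11, adjusted p = 2.00e-49) with siRNA8, the deepest called fall of a matrix gene with siRNA8, per the authors' deposited tables. COL6A2, which lies on chromosome 21 as COL6A1 does, fell by 0.40 (SE 0.070) with siRNA5 and dropped by 0.57 (SE 0.070) with siRNA8, per the authors' deposited tables. COL6A3, on chromosome 2, fell by 0.67 (SE 0.062, adjusted p = 7.90e-26) with siRNA5, and its log2 fold change with siRNA8 was 0.05 (SE 0.060, adjusted p = 0.575), per the authors' deposited tables.

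Of the 10 collagens outside the fibrillar and basement membrane groups, 6 fell and 0 rose with siRNA5 (all genes 22.0% and 24.4%), and 2 fell and 2 rose with siRNA8, which is near the share over all genes (20.5% and 21.0%). COL7A1, which forms the anchoring fibrils under epithelia, fell by 0.56 (SE 0.12, adjusted p = 1.28e-05) with siRNA5, and its log2 fold change with siRNA8 was -0.09 (SE 0.12), per the authors' deposited tables. COL17A1, a transmembrane collagen of hemidesmosomes, fell by 1.72 (SE 0.37, adjusted p = 1.47e-05) with siRNA5 from a mean of 55.8 in the authors' deposited table, 3.28-fold, and its log2 fold change with siRNA8 was -0.08 (SE 0.30). COL12A1, a fibril-associated collagen, fell by 2.28 (SE 0.79, adjusted p = 0.0112) with siRNA5 from a mean of 12.3 counts, the lowest of the 41, and had -0.71 (SE 0.62, adjusted p = 0.376) with siRNA8, per the authors' deposited tables. COL8A1, a short-chain network collagen, rose by 0.31 (SE 0.074, adjusted p = 0.000207) and COL14A1, a fibril-associated collagen with a mean of 34.3, rose by 1.38 (SE 0.38, adjusted p = 0.00125) with siRNA8, per the authors' deposited table. COL13A1 and COL16A1 were called with neither siRNA, and neither were the 3 fibrillar collagens COL1A1, COL5A2 and COL27A1. COL1A1, the main collagen of fibroblasts and bone, had a mean of 48.5 counts.

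All 3 fibrillin and fibulin genes among the 41 fell with siRNA5 (all genes 22.0%) and 0 were called with siRNA8 (all genes 41.5%). EFEMP1, a fibulin, stood at 183 normalized counts with siRNA5, 372 with siRNA8 and 314 with NTC, computed from the authors' deposited tables. It fell by 0.78 (SE 0.14, adjusted p = 7.05e-08) with siRNA5, and its log2 fold change with siRNA8 was 0.24 (SE 0.12, adjusted p = 0.101), per the authors' deposited tables. EFEMP2, a fibulin needed for elastic fibres, fell by 0.79 (SE 0.25, adjusted p = 0.00546) and FBN1, fibrillin-1, fell by 0.63 (SE 0.24, adjusted p = 0.0198) with siRNA5, per the authors' deposited table. EFEMP2 had -0.16 (SE 0.23) and FBN1 -0.39 (SE 0.23) with siRNA8, per the authors' deposited table. Where the siRNAs were compared directly, EFEMP1 differed, while EFEMP2 (adjusted p = 0.16) and FBN1 (adjusted p = 0.628) were not called. EFEMP2 was called there with the control variance rebuilt (adjusted p = 0.0289). The FBN1 call with siRNA5 was lost at a threshold of 0.01 and where the interval had to lie beyond 0.25. VCAN, versican, a large chondroitin sulfate proteoglycan that binds hyaluronan, stood at 12473 normalized counts with siRNA5, 7562 with siRNA8 and 15369 with NTC, computed from the authors' deposited tables. It fell by 0.30 (SE 0.081, adjusted p = 0.00075) with siRNA5 and dropped by 1.02 (SE 0.081, adjusted p = 3.09e-34) with siRNA8, per the authors' deposited tables. The cross-linking enzymes LOX, with a mean of 69.0, and LOXL2, with a mean of 7398, rose by 0.78 (SE 0.25, adjusted p = 0.00684) and 0.25 (SE 0.046, adjusted p = 5.10e-07) with siRNA8, per the authors' deposited table, and neither was called with siRNA5.

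The direct comparison of the siRNAs asked which matrix genes responded differently to 2 reagents against 1 target. The fold change with siRNA8 was subtracted from that with siRNA5, so that the NTC libraries cancel, and the SE is an upper bound. Of the 41 genes, 18 differed at an adjusted p under 0.05 over all genes (all genes 32.0%), 3 of them higher with siRNA5 (all genes 17.2%) and 15 higher with siRNA8 (all genes 14.8%). The 3 higher with siRNA5 were THBS1, with a log2 difference of 2.36 (SE 0.095, adjusted p = 1.30e-131), COL6A1, with 1.22 (SE 0.15, adjusted p = 1.54e-14), and VCAN, with 0.72 (SE 0.11, adjusted p = 5.93e-09). Among the 15 higher with siRNA8, TNC differed by -1.37 (SE 0.11, adjusted p = 4.48e-35), LAMB3 by -1.07 (SE 0.094, adjusted p = 2.32e-28) and FN1 by -0.997 (SE 0.11, adjusted p = 5.87e-17). COL4A2 differed by -0.46 (SE 0.064, adjusted p = 1.69e-11) and COL4A1 by -0.18 (SE 0.069, adjusted p = 0.0272). For COL6A2 the difference was 0.17, with a 95% interval of -0.02 to 0.37, and for COL18A1 0.11, with an interval of -0.05 to 0.28. The median absolute difference was 0.47 for matrix genes and 0.26 for all genes.

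**Figure D3:**
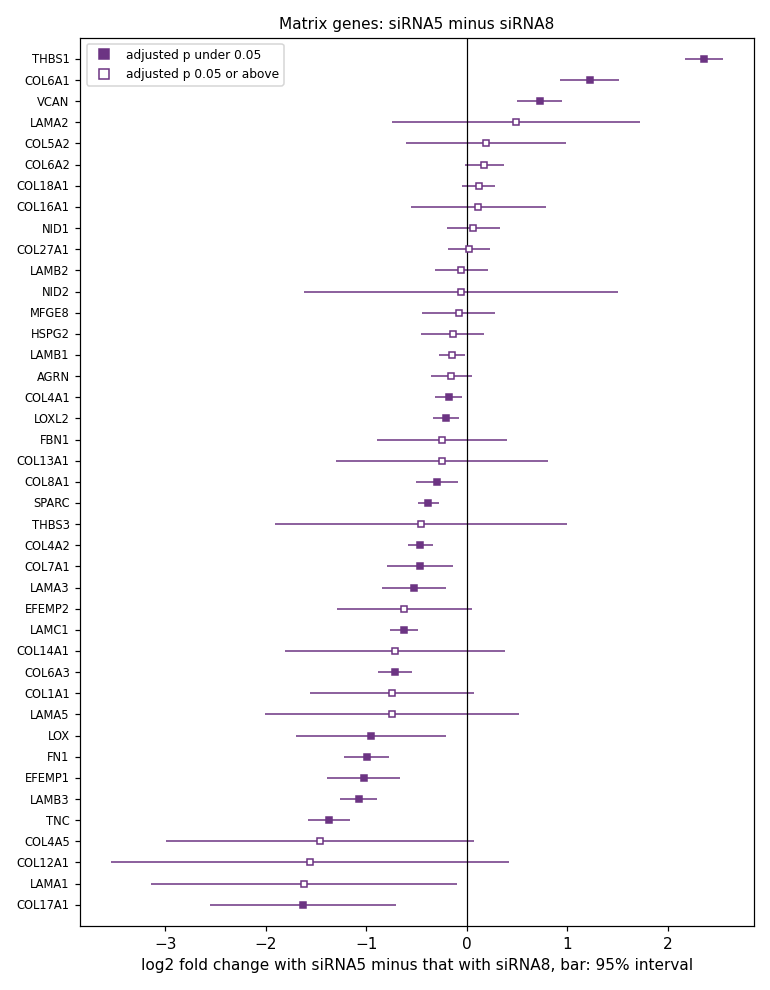
Log2 fold change with siRNA5 minus that with siRNA8 (x axis) for the 41 matrix genes, sorted, with 95% intervals from the upper bound of the SE and filled points where the adjusted p is under 0.05. THBS1, COL6A1 and VCAN are the 3 filled points right of the line, and 15 are filled on the left, with COL17A1 at -1.63 and COL4A1 at -0.18.

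Abundance bears on these counts, since the SE is smaller for abundant genes. Among the 20 matrix genes with a mean of at least 1000, 14 differed between the siRNAs, or 70.0%, against 49.5% of the 3302 genes of that abundance. In the same abundance class, 13 matrix genes were called with siRNA5, or 65.0%, against 61.4% of genes, and 14 with siRNA8, or 70.0%, against 55.9%. Among the 15 with a mean under 100, 4 were called with siRNA5 and 3 with siRNA8, near the 20.9% and 19.9% of all 2322 genes of that abundance. COL4A3BP, the gene found by its symbol alone, rose by 0.26 (SE 0.098, adjusted p = 0.0218) with siRNA5 and dropped by 0.38 (SE 0.10, adjusted p = 0.000837) with siRNA8, per the authors' deposited tables.

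Other genes of matrix production were taken from a list of 76, of which 53 were measured. The 53 include MFAP1, which is not a matrix gene. By the authors' deposited adjusted p-values, 19 of the 53 rose and 14 fell with siRNA5 (all genes 24.4% and 22.0%), and 21 rose and 7 fell with siRNA8 (all genes 21.0% and 20.5%), with a median log2 fold change of 0.16 with siRNA5 and 0.12 with siRNA8. The counts by group that follow stand against these same shares, and most groups are small. Of the 16 genes for collagen modification and folding, 6 rose and 5 fell with siRNA5, and 8 rose and 1 fell with siRNA8. P3H1, a prolyl 3-hydroxylase of collagen, rose by 0.52 (SE 0.049) with siRNA5 and by 0.22 (SE 0.050) with siRNA8, per the authors' deposited tables. FKBP14, an isomerase that acts on collagen in the endoplasmic reticulum, fell by 0.58 (SE 0.096) with siRNA5, and SERPINH1, the collagen chaperone HSP47, fell by 0.34 (SE 0.069) with siRNA8, per the authors' deposited tables. Of the 10 genes for export and procollagen processing, 1 rose and 1 fell with siRNA5, and 3 rose and 1 fell with siRNA8. SEC23A, a coat protein of the vesicles that carry procollagen, fell by 0.67 (SE 0.063) with siRNA8, and its log2 fold change with siRNA5 was 0.04 (SE 0.061), per the authors' deposited tables.

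Of the 7 measured matrix receptors other than integrins, 5 differed between the siRNAs (all genes 32.0%), all higher with siRNA5 (all genes 17.2%). Against NTC, 6 rose and 1 fell with siRNA5 (all genes 24.4% and 22.0%), and 1 rose and 3 fell with siRNA8 (all genes 21.0% and 20.5%). The receptors are abundant, with means between 906 and 11029, so the shares over all genes are low for them. Of genes with a mean of at least 1000, 49.5% differed between the siRNAs. In that class 61.4% were called with siRNA5 and 55.9% with siRNA8. SDC4, syndecan-4, a heparan sulfate proteoglycan that binds fibronectin, fell by 0.14 (SE 0.055) with siRNA5 and dropped by 0.59 (SE 0.056) with siRNA8, per the authors' deposited tables. Of the 4 other cross-linking enzymes, 2 fell with siRNA5 and 1 rose with siRNA8. LOXL1, a lysyl oxidase of elastic fibres, fell by 1.09 (SE 0.21) with siRNA5, and TGM2, transglutaminase 2, with a mean of 15416, rose by 0.97 (SE 0.053) with siRNA8, per the authors' deposited tables. Of 16 genes listed as other secreted matrix proteins, 6 rose and 5 fell with siRNA5, and 8 rose and 2 fell with siRNA8. MFAP1 is among the 16 but is not a secreted matrix protein. It was called higher with each siRNA and so is counted among these rises. LTBP2 and LTBP4, which bind latent TGF-beta or microfibrils, rose with both siRNAs, LTBP2 with log2 fold changes of 1.43 (SE 0.19) for siRNA5 and 1.74 (SE 0.19) for siRNA8, and LTBP4 with 0.79 (SE 0.092) for siRNA5 and 0.81 (SE 0.092) for siRNA8, per the authors' deposited tables. Of the same family, LTBP1, with a mean of 70.2, rose with both siRNAs, while LTBP3 fell by 0.39 (SE 0.13) with siRNA5 and rose by 0.38 (SE 0.12) with siRNA8, per the authors' deposited tables; both were added after their values were seen. CTGF, a matricellular protein, rose by 1.46 (SE 0.11) with siRNA8, and ECM1 rose by 0.82 (SE 0.14) with siRNA5, per the authors' deposited tables. SPP1, osteopontin, fell by 0.59 (SE 0.078) with siRNA5 and rose by 0.64 (SE 0.073) with siRNA8, per the authors' deposited tables. TINAGL1, a basement membrane glycoprotein, fell by 0.90 (SE 0.074) with siRNA5, and NTN4, a netrin of basement membranes, fell by 0.63 (SE 0.17) with siRNA8, per the authors' deposited tables.

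**Figure D4:**
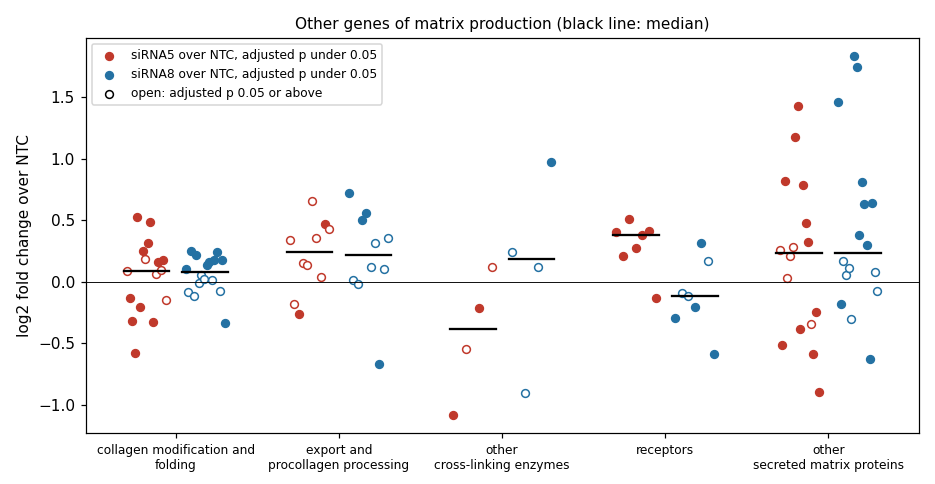
Log2 fold change over NTC (y axis) of the 53 genes of the other list in 5 groups. MFAP1 is included, although it is not a matrix gene. Points are for siRNA5 (red, left in each group) and siRNA8 (blue, right), each point 1 gene. They are open where the adjusted p is 0.05 or above, with black lines at the medians. Of the 7 receptors, 6 are filled above 0 with siRNA5 and 1 with siRNA8.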

How the data were processed

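RNA of 786-O cells in 6 libraries (2 each with ALYREF siRNA5, ALYREF siRNA8 and NTC) was, per the labels, poly(A)-selected and prepared with a directional kit and sequenced as pairs of 42 nt reads. The submitters' processing notes name hg19 and, with no versions, DESeq2, HTSeq, Picard and STAR. No source used here says whether counting used strand. In GENCODE v29, 21 of the 41 genes share exon bases with another gene, over 20% of them in NID2 and THBS3.

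Per the file headers, the deposited signal is a mean normalized count of the authors' DESeq2 fit, the fold change and its standard error are log2 values, the score is the Wald statistic, and the p-values are two-sided, adjusted by Benjamini-Hochberg over all 11681 rows, which was recomputed. Of the sum of means, 6.23% are reads without a feature and 1.62% ambiguous; both rows were left out. The lowest mean is 11.6, and the depth of each library is unknown. Tables were matched to siRNAs by number. No label says that libraries came from separate cultures, so the p-values cover a spread that may be technical.

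Computed here (Python 3.11.15, scipy 1.17.1): group levels, assuming unshrunk fold changes and 2 libraries per group. The squared standard errors followed these levels with a slope of 0.574 over 963 genes with low means, where 0.5 is due to 2 libraries per group. Differences between siRNAs used both squared standard errors, summed, as their variance, tested on simulated data. Levels per kb used the union of GENCODE v29 exons, a build other than that of the counts. The rule for genes described with values took members called with at least 0.5 on the log2 scale or differing between siRNAs, up to 4 largest rises and falls per siRNA of the other list (mean of at least 100), and ALYREF. LAMB1, COL18A1, NID1, AGRN and HSPG2, the markers and LTBP1 and LTBP3 fall outside it and were chosen after their values were seen. Members and lists were chosen with earlier results of these data known; 1 gene that meets the rule and 1 marker are not reported here. Alternatives were a threshold of 0.01, means of at least 100, centring on the median of genes with a mean of at least 500, a 95% interval beyond 0.25, and a rebuilt control variance.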

Additional observations from a re-analysis of the deposited data

Results flagged for a closer look

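The siRNAs, tested directly against each other as in the comparison of both, differed for 30 of the genes screened (all genes 32.0%). These were 18 matrix genes, COL4A3BP, 10 genes of the other list and ALYREF itself (-0.47). The screen took the 42 genes found by the rule, ALYREF and 14 genes of the other list. Those 14 were picked as the largest called changes with either siRNA. That pick favours genes that differ, so their count does not describe the other list. LTBP3, added later, also differed by the same test (-0.76, adjusted p = 0.000177), and the markers were not screened. Values are the log2 fold change with siRNA5 minus that with siRNA8. THBS1 (2.36), COL6A1 (1.22), VCAN (0.72), SEC23A (0.71), ECM1 (0.65), COL4A3BP (0.64), SDC4 (0.46) and P3H1 (0.30) were higher with siRNA5. COL17A1 (-1.63), TNC (-1.37), LOXL1 (-1.33), SPP1 (-1.23), CTGF (-1.20), LAMB3 (-1.07), EFEMP1 (-1.03) and FN1 (-0.997) were lower with siRNA5 by about 1 or more on that scale. LOX (-0.95), TGM2 (-0.86), TINAGL1 (-0.83), COL6A3 (-0.71), LAMC1 (-0.63) and LAMA3 (-0.53) came next. COL7A1 (-0.47), FKBP14 (-0.46), COL4A2 (-0.46), SPARC (-0.38), COL8A1 (-0.30), LOXL2 (-0.21) and COL4A1 (-0.18) differed least.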

How the results depend on the processing

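Values were recomputed for 55 genes, the 41 matrix genes and 14 of the other list. Of 615 such values, 569 kept their direction and their side of the threshold, and 2 turned sign, both uncalled. With centring on the median, AGRN was -0.00814 and COL8A1 -0.0295 with siRNA5. With a threshold of 0.01, 3 matrix genes rose with siRNA5 in place of 5, and 9 genes of the other list fell in place of 14. With a 95% interval beyond 0.25, 13 matrix genes were called with siRNA5 in place of 21, 1 of them higher, and 2 in one direction with both siRNAs in place of 8. In the other list that interval left 11 rises and 6 falls with siRNA5, 8 rises and 3 falls with siRNA8, and 4 genes called with both siRNAs in place of 18. For these counts against NTC the share over all genes was not computed. With the control variance rebuilt, 24 matrix genes differed between the siRNAs in place of 18, and 5615 of all genes in place of 3739. Centring moved fold changes by 0.04 with siRNA5 and 0.03 with siRNA8, and SPARC (adjusted p = 0.0129) and LAMB2 (adjusted p = 0.0425) then fell with siRNA5. For the 15 matrix genes with means under 100 the depth limits what can be called. No paired analysis was possible because the tables hold no values of single libraries; for the same reason leaving out a replicate and edgeR were not run.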
